A study of Mus musculus with 25 samples.

Results

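The genes described here are 33 interferon response genes, a set of well known targets of interferon signalling chosen by symbol. They include factors that carry the signal, sensors of foreign nucleic acid, antiviral effectors and inducible GTPases. These genes were chosen with earlier results of these data known. Each was found in the table of counts by its Ensembl identifier, and a gene was kept where its mean level over the 25 libraries was 0.5 CPM or more. CPM are counts per 1000000 counts of a library, after scaling by TMM (trimmed mean of M values). All 33 of the 33 genes listed met this rule, out of 47729 genes with a row, and all 33 are among the 17799 genes that passed the filter on low counts and were tested. The lowest mean was that of Zbp1, at 0.603 CPM, followed by Oas1a at 0.639 CPM, and the lowest count of any of them in any library was 6.

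RNA was sequenced from brain hemispheres of male C57BL/6 mice aged 2, 9, 15, 24 or 30 months, with 5 libraries at each age. The labels name no treatment, genotype or transgene, so the ages differ in the labels by age alone. The 30 month libraries came from the same strain, sex and tissue as the others. Where nothing says which samples share a litter or a day of preparation, the p-values measure the spread between these libraries.

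Type I interferons (the alpha and beta interferons) bind a receptor made of Ifnar1 and Ifnar2, and interferon gamma binds a receptor made of Ifngr1 and Ifngr2. The kinases Jak1, Jak2 and Tyk2 on these receptors phosphorylate transcription factors. Stat2 and Irf9 are subunits of the complex ISGF3, which binds the interferon-stimulated response element (ISRE), and the gamma route acts through the gamma-activated site (GAS). The targets of these complexes include sensors that raise interferon production further, proteins that block viral RNA and membranes, and brakes such as Usp18. In brain, microglia, astrocytes, endothelium and neurons carry these receptors, and tonic interferon signalling is known to keep such transcripts at a low standing level.

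Library totals ran from 17.8 to 31.3 in units of 1000000 counts. Neuronal markers (8 genes) summed to 7333 to 8660 CPM and astrocyte markers (8 genes) to 4788 to 6325 CPM in the libraries, so the markers that define brain tissue were present. Of the 30 month libraries, replicates 2 to 5 stood apart: the 10% of genes richest in GC had a median log2 deviation from the 2 month mean that was 1.10 to 2.01 above that of the 10% poorest in GC, where this gap was -0.26 to 0.14 in the 20 libraries of 2 to 24 months and 0.12 in replicate 1 of 30 months. For that reason ages up to 24 months were compared within the 20 libraries of those ages, and each fold change or count of calls at 30 months is given with and without these 4 libraries. Within those 20 libraries the gap was lowest at 15 months, at -0.26 to -0.10, where no library of 2, 9 or 24 months was below -0.077. Comparisons with 15 months therefore hold this smaller difference in GC as well as age. Liver transcripts also varied between libraries: Alb ran from 0 to 128 CPM at 2 months and from 38.5 to 171 CPM at 24 months.

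At 24 months the interferon response genes were higher than at 2 months. Of the 33, 21 rose and none fell (edgeR quasi-likelihood F test, adjusted p under 0.05), where 10.8% of all genes tested rose and 11.5% fell. Their median log2 fold change was 0.59, against 0.0020 over all genes tested, and 32 of the 33 log2 fold changes were above 0. The rises ran from 1.11-fold for Stat2, a subunit of ISGF3, to 2.67-fold for Zbp1, a sensor of Z-form nucleic acid, and 14 of the 21 were of 1.5-fold or more. Fewer reached 1.5-fold without replicate 1 of 24 months. The log2 fold change then went from 0.65 to 0.49 for Irf7 and from 0.79 to 0.45 for Irgm1. In 15 of the 21, all 5 libraries of 24 months lay above all 5 of 2 months, where 7.01% of all genes did so, and in none were they all below, where 7.42% were. The hemisphere is a mixture of cells, so a change in the number of cells of a type and a change in RNA per cell cannot be told apart.

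A straight line was also fitted through 2, 9, 15 and 24 months. It uses the libraries of 2 and 24 months again, so it is not independent of the comparison above. Along it 23 of the 33 rose with age and none fell, against 8.16% and 8.41% of all genes. All 33 slopes were above 0, with a median of 0.027 log2 units per month. Gbp3, Iigp1 and Rtp4 passed this test and not the comparison of 24 with 2 months, and Oas1a passed the comparison alone. Replicate 2 of 2 months was the highest of its age in 16 of the 33 genes (17.5% of all genes). Replicate 1 was so in 18 at 9 months (21.5%) and in 16 at 15 months (24.6%). Replicate 1 of 24 months stood apart most: it held the highest level of its age in 29 of the 33 genes, where it did so for 21.2% of all genes. Without it 16 of the 33 rose from 2 to 24 months, none fell and the median log2 fold change was 0.44, while 18 rose along the line; of all genes 8.90% rose and 9.88% fell in that comparison and 5.81% and 5.80% along the line. When all 25 libraries entered one fit, the median stayed at 0.58 and 8 of the 33 rose, where 3.38% of all genes rose and 1.85% fell. With a covariate for 6 microglial genes 9 rose, where 7.44% of all genes rose and 7.69% fell.

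**Figure D1:**
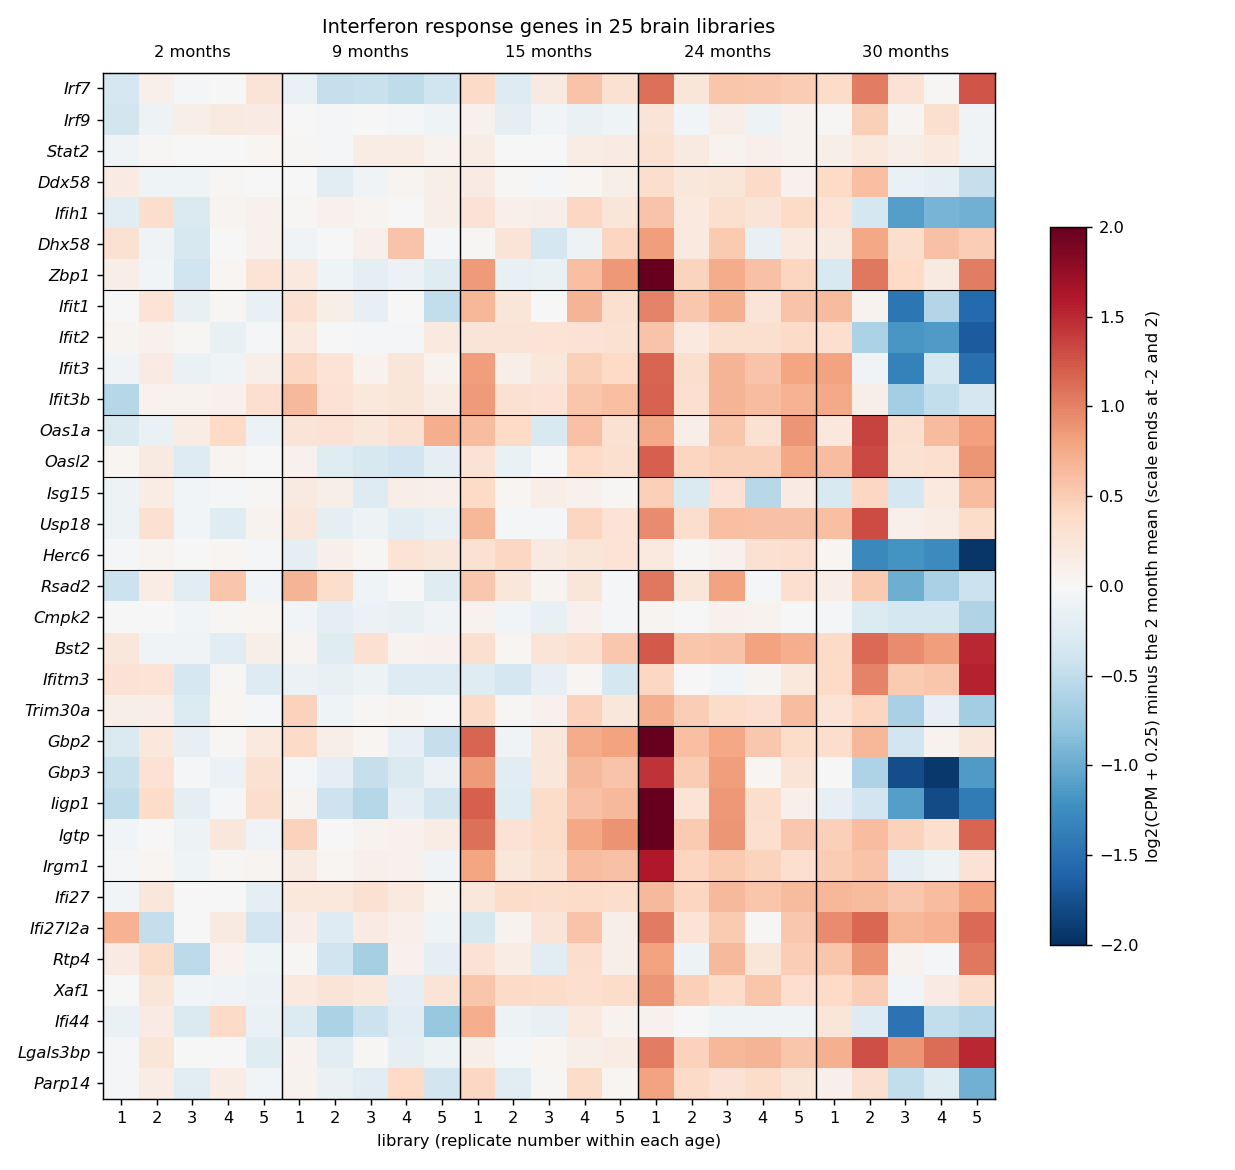
Each row is a gene and each column a library, grouped by age with the replicate number below; the colour gives log2(CPM + 0.25) minus the mean of the 5 libraries of 2 months, and horizontal lines part the roles from factors (top) to other induced genes (bottom). Red fills most rows at 24 months, most deeply in replicate 1 and in the GTPases, while rows such as Irf9, Stat2, Isg15, Herc6, Cmpk2, Ifitm3 and Ifi44 stay pale. At 30 months replicates 2 to 5 hold both deep blue and deep red rows.

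**Figure D2:**
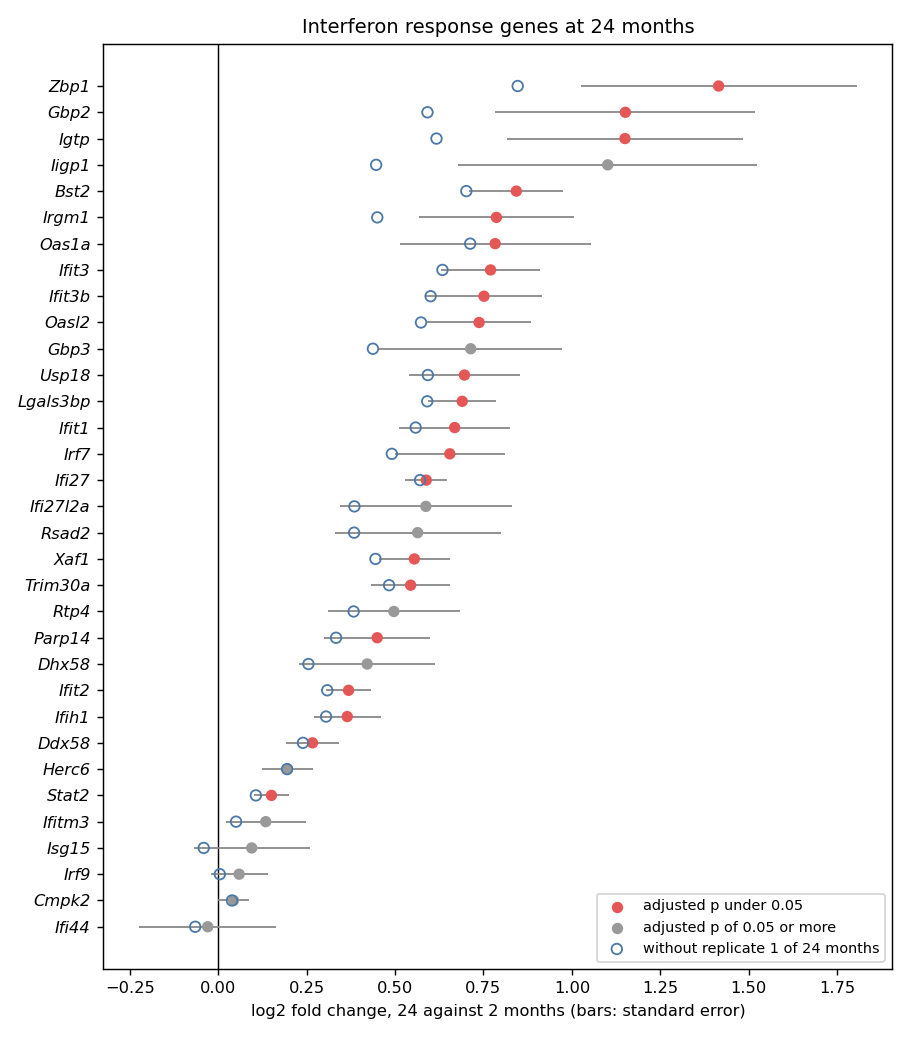
Points give the log2 fold change of each of the 33 genes from 2 to 24 months with its standard error, red where the adjusted p was under 0.05, and open circles give the value without replicate 1 of 24 months. Zbp1, Gbp2, Igtp and Iigp1 lie farthest to the right and move farthest to the left without that replicate, while Ifi27 barely moves (0.59 and 0.57).

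The promoters of the 6 members with the smallest p of the line that have an entry show how far these genes share the letters of an ISRE. Promoters were taken from RefSeq on GRCm38.p6, from 250 bases before to 50 after a transcription start, and 25 of the 33 members had an entry, with 29 promoters. The ISRE-like motif searched was GAAANNGAAA, on the other strand TTTCNNTTTC, and the GAS-like motif was TTCNNNGAA, which reads alike on both strands. Capitals mark each match of either motif. Isg15, the ubiquitin-like modifier, is shown beside them as a member that did not pass the test, and it was added after its values were seen.
Bst2: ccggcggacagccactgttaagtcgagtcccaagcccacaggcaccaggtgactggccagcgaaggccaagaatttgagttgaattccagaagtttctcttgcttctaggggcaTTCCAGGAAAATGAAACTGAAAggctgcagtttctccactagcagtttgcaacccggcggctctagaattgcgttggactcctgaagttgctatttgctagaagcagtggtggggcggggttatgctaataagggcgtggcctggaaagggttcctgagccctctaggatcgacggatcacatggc
Ifit3: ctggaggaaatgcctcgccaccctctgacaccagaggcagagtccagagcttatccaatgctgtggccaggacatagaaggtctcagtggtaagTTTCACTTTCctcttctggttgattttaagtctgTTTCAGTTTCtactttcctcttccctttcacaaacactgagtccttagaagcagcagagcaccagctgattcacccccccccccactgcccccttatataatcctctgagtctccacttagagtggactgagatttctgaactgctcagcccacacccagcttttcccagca
Trim30a: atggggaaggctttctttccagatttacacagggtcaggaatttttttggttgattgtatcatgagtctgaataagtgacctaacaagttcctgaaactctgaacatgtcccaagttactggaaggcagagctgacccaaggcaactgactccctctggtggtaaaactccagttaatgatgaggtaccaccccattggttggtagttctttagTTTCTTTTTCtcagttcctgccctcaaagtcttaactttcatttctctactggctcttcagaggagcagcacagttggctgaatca
Ifit2: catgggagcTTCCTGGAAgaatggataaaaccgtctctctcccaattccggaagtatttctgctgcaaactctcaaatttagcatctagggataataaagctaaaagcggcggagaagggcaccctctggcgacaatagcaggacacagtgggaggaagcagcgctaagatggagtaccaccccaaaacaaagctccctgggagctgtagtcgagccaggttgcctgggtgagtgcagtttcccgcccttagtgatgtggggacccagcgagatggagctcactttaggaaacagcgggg
Xaf1: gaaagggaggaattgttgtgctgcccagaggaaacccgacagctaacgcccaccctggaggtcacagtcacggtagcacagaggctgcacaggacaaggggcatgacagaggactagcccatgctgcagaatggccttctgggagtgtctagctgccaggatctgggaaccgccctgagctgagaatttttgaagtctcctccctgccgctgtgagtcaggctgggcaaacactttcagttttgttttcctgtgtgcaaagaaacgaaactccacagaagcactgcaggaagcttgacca
Lgals3bp: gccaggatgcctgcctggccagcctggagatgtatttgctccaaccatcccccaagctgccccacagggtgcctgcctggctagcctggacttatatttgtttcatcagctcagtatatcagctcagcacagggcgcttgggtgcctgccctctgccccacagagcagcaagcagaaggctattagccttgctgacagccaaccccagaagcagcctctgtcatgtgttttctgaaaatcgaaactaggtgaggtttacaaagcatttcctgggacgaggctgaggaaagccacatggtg
Isg15: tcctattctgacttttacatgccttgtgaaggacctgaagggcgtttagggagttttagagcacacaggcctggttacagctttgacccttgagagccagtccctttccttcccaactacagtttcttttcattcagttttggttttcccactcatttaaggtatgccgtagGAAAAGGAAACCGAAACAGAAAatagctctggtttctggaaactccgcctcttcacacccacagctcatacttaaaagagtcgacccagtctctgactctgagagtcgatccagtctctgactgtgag
These are, in order, chr8:71537423-71537722 (minus strand), chr19:34583279-34583578 (plus), chr7:104465144-104465443 (minus), chr19:34550444-34550743 (plus), chr11:72301379-72301678 (plus), chr11:118401910-118402209 (minus) and chr4:156200769-156201068 (minus), each printed 5′ to 3′ in the direction of transcription.

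In the Bst2 promoter a GAS-like match at -136 to -128 from the start overlapped the first of 2 ISRE-like matches, at -130 to -121 and -124 to -115. Ifit3 held 2 ISRE-like matches, at -156 to -147 and -122 to -113, and Trim30a, which has 2 starts, held 1 in each promoter. In Isg15, 3 matches overlapped between -78 and -57. The windows of Xaf1 and Lgals3bp held neither motif, and the Ifit2 window shown held a GAS-like match only, at -241 to -233. Over the 29 promoters of members, 17 (58.6%) held an ISRE-like match, against 3.44% of all 32851 promoters of the same length. A GAS-like match stood in 5 of the 29 (17.2%), against 8.30% of all. Of the 17 members with an entry that rose from 2 to 24 months, 12 held an ISRE-like match, and of the 8 that did not pass the test, 4 did. A match describes the letters of the window alone. The members were chosen as known interferon targets, so their shares beside all promoters say nothing of a change with age.

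**Figure D3:**
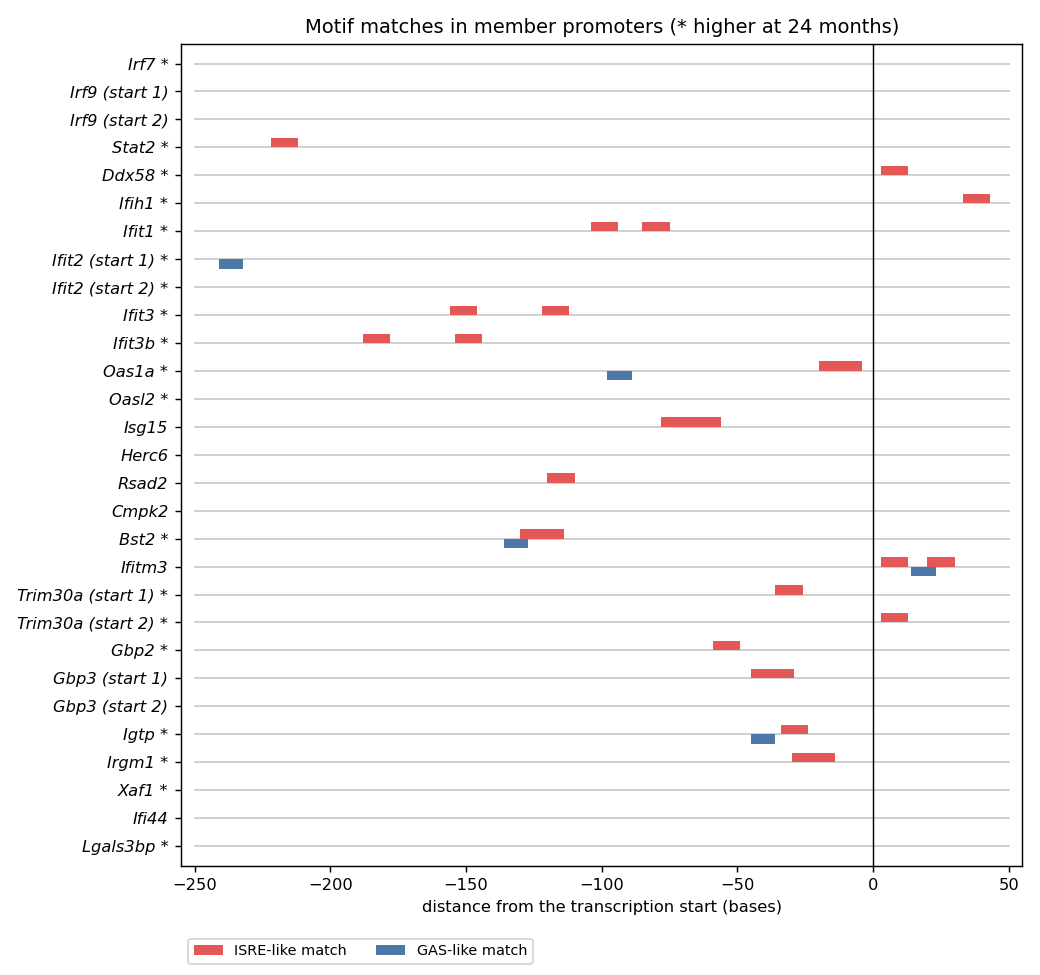
The horizontal lines are the 29 promoters of 25 members, from 250 bases before to 50 after the start, with ISRE-like matches in red above the line and GAS-like matches in blue below it; an asterisk marks members that rose from 2 to 24 months. Most red matches lie within 160 bases before the start, and 12 of the 29 lines carry none.

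Of the 3 signal transducers and factors, Irf7 and Stat2 rose by 24 months. Irf7, the factor that drives alpha interferon transcription (chr7:141262706-141266481, minus strand), stood at 2.20, 3.06, 2.79, 2.87 and 3.48 CPM in the libraries of 2 months and at 6.40, 3.40, 4.29, 4.27 and 4.16 CPM in those of 24 months. At 9 months it held 2.58, 2.01, 2.03, 1.93 and 2.10 CPM (log2 fold change -0.42 from 2 months, adjusted p = 0.0977), and reached 3.78, 2.35, 3.24, 4.37 and 3.58 CPM at 15 months. Of the 5 libraries of 9 months 4 lay below every other library of the course, and 1 library of 24 months, replicate 2, lay within the range of 2 months. The log2 fold change from 2 to 24 months was 0.65 ± 0.16 (SE; adjusted p = 0.00290). Irf7 shares 45 exon bases with Phrf1 on the other strand, and the strand setting of the counting is not given in the sources used here.

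Stat2 (chr10:128270559-128292849, plus strand) held 26.6, 28.6, 27.9, 28.2 and 28.8 CPM at 2 months and 34.8, 31.9, 29.6, 29.96 and 29.4 CPM at 24 months. Values of 28.6, 27.4, 31.02, 31.2 and 29.5 CPM at 9 months and 31.1, 28.3, 27.8, 31.3 and 31.4 CPM at 15 months lay between or across both ranges. Its rise was the smallest of the 21, at 0.15 ± 0.050 on the log2 scale (adjusted p = 0.0279). It lost the call when any of 4 single libraries was left out: replicates 1 and 3 of 2 months and replicates 1 and 2 of 24 months (adjusted p = 0.124 without replicate 1 of 24 months). Irf9, the DNA-binding subunit of ISGF3, ranged from 9.09 to 13.3 CPM at 2 months and from 10.9 to 14.1 CPM at 24 months, with a log2 fold change of 0.059 ± 0.081 (adjusted p = 0.646).

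Of the 4 sensors, Ddx58, Ifih1 and Zbp1 rose. Ddx58 encodes RIG-I, a cytosolic sensor of short viral RNA with a free triphosphate end (chr4:40203773-40239828, minus strand). It held 8.40, 6.99, 7.001, 7.54 and 7.36 CPM at 2 months and 9.59, 8.74, 8.86, 9.75 and 7.89 CPM at 24 months. The values of 9 months (7.45, 6.37, 7.12, 7.72 and 8.12 CPM) and 15 months (8.34, 7.53, 7.30, 7.69 and 8.05 CPM) stayed near those of 2 months. The highest library of 2 months, replicate 1, lay above the lowest of 24 months, and the log2 fold change was 0.27 ± 0.076 (adjusted p = 0.0112). Ifih1 encodes MDA5, the sensor of long double-stranded RNA (chr2:62595798-62646255, minus strand). Its levels were 6.11, 9.09, 5.75, 7.37 and 7.57 CPM at 2 months and 10.6, 8.18, 8.89, 8.49 and 9.43 CPM at 24 months, passing 7.20, 7.52, 7.34, 7.01 and 7.70 CPM at 9 and 8.72, 7.65, 7.67, 9.52 and 8.43 CPM at 15 months. Replicate 2 of 2 months reached into the range of 24 months. On the log2 scale the change was 0.36 ± 0.10 (adjusted p = 0.00576).

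Zbp1 (chr2:173206612-173218923, minus strand) had the largest fold change of the 33 and the lowest level. It held 0.440, 0.357, 0.225, 0.394 and 0.511 CPM at 2 months, 0.473, 0.342, 0.301, 0.329 and 0.280 CPM at 9, 0.877, 0.314, 0.324, 0.707 and 0.895 CPM at 15 and 2.25, 0.603, 0.796, 0.697 and 0.5996 CPM at 24 months. Replicate 1 of 24 months was 3.34 times the mean of the other 4 of its age, and these 4 still lay above every library of 2 months. Its log2 fold change was 1.41 ± 0.39 (adjusted p = 0.0106) and fell to 0.85 (adjusted p = 0.0531) without that replicate. Dhx58, which encodes LGP2, a helicase that modulates both RNA sensors, ranged from 1.25 to 2.05 CPM at 2 months and from 1.44 to 3.08 CPM at 24 months and did not pass the test (adjusted p = 0.117).

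All 4 members of the IFIT family, which bind foreign RNA ends and hold back translation, rose; their genes lie side by side on chromosome 19. Ifit1 (chr19:34640871-34650009, plus strand) held 3.91, 4.80, 3.53, 3.99 and 3.53 CPM at 2 months and 8.03, 5.81, 6.57, 4.75 and 5.93 CPM at 24 months. At 9 months it stood at 4.91, 4.27, 3.46, 3.91 and 2.71 CPM and at 15 months at 6.36, 4.71, 3.89, 6.44 and 4.99 CPM. Replicate 4 of 24 months lay just under the highest library of 2 months, and the log2 fold change was 0.67 ± 0.16 (adjusted p = 0.00348).

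Ifit2 (chr19:34550694-34576419, plus strand) is the member of the family with the tightest course. Its libraries of 2 months held 13.4, 13.8, 13.1, 11.6 and 12.6 CPM and those of 24 months 19.4, 14.8, 16.2, 16.1 and 16.95 CPM. At 15 months the 5 libraries lay within 15.5 to 15.97 CPM (15.5, 15.5, 15.7, 15.9 and 15.97 CPM), above all 5 of 9 months (14.8, 12.8, 12.6, 12.8 and 14.8 CPM) and all 5 of 2 months. The log2 fold change was 0.28 ± 0.066 from 2 to 15 months (adjusted p = 0.00514) and 0.37 ± 0.064 from 2 to 24 months (adjusted p = 1.10e-04). Its promoter, printed above, held no ISRE-like match.

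Ifit3 (chr19:34583531-34588731, plus strand) rose from 5.28, 6.23, 5.07, 5.29 and 6.03 CPM at 2 months to 12.8, 7.15, 9.03, 8.36 and 9.79 CPM at 24 months, with no overlap between these ages. It held 7.49, 6.75, 5.87, 6.59 and 5.88 CPM at 9 months and 10.1, 6.04, 6.57, 7.86 and 7.44 CPM at 15 months. At 24 months the log2 fold change was 0.77 ± 0.14 (adjusted p = 4.69e-04). Its neighbour and close copy Ifit3b (chr19:34607970-34613401, plus strand) went from 1.86, 3.06, 3.05, 3.09 and 3.73 CPM to 6.89, 3.70, 4.77, 4.57 and 4.83 CPM, with 4.69, 3.59, 3.39, 3.48 and 3.22 CPM at 9 and 5.43, 3.65, 3.61, 4.37 and 4.52 CPM at 15 months. Replicate 1 of 2 months was the lowest library of the course, replicate 2 of 24 months lay just within the range of 2 months, and the fold change was 0.75 ± 0.16 on the log2 scale (adjusted p = 0.00179). How reads that fit both copies were assigned is not given in the sources used here, so the split between Ifit3 and Ifit3b is uncertain.

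Both members of the OAS family rose. Oas1a makes the short oligoadenylates that activate RNase L (chr5:120896256-120907521, minus strand). It held 0.293, 0.357, 0.482, 0.619 and 0.358 CPM at 2 months, 0.545, 0.556, 0.527, 0.565 and 0.840 CPM at 9, 0.768, 0.628, 0.284, 0.748 and 0.565 CPM at 15 and 0.866, 0.474, 0.727, 0.566 and 0.966 CPM at 24 months. The ranges of 2 and 24 months overlapped, and the log2 fold change of 0.78 ± 0.27 (adjusted p = 0.0354) lost its call without any one of 6 libraries: replicates 1, 2 and 5 of 2 months and 1, 3 and 5 of 24 months. Oasl2, an OAS-like protein with ubiquitin-like repeats (chr5:114896936-114912234, plus strand), had higher counts. Its levels were 5.81, 6.43, 4.69, 5.90 and 5.68 CPM at 2 months and 13.4, 7.75, 7.96, 8.01 and 9.83 CPM at 24 months, with 6.07, 4.74, 4.52, 4.28 and 4.90 CPM at 9 and 7.02, 5.18, 5.68, 7.53 and 7.11 CPM at 15 months. All 5 libraries of 24 months lay above every library of 2, 9 and 15 months, and the log2 fold change from 2 months was 0.74 ± 0.15 (adjusted p = 9.78e-04).

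In the ISG15 system, which attaches and removes the modifier Isg15, 1 of 3 members rose. Usp18 removes Isg15 from proteins and restrains Ifnar2 signalling (chr6:121245906-121270917, plus strand). It held 1.51, 2.09, 1.57, 1.35 and 1.74 CPM at 2 months and 3.39, 2.15, 2.63, 2.57 and 2.60 CPM at 24 months, and 1.96, 1.41, 1.51, 1.37 and 1.45 CPM at 9 and 2.74, 1.61, 1.58, 2.29 and 2.03 CPM at 15 months. The 24 month libraries lay above all of 2 months, with a log2 fold change of 0.70 ± 0.16 (adjusted p = 0.00182). Isg15 itself (chr4:156199424-156200818, minus strand) held 1.76, 2.14, 1.83, 1.86 and 1.94 CPM at 2 months and 2.74, 1.51, 2.39, 1.22 and 2.17 CPM at 24 months. Of the latter, replicates 2 and 4 lay below every library of 2 months and replicates 1, 3 and 5 above every one. The log2 fold change was 0.095 ± 0.16 (adjusted p = 0.728), and it was -0.041 without replicate 1 of 24 months. Herc6, the mouse ligase for Isg15, ranged from 11.3 to 12.2 CPM at 2 months, from 13.3 to 15.8 CPM at 15 months and from 11.8 to 14.8 CPM at 24 months. Its log2 fold change to 24 months was 0.20 ± 0.073 (adjusted p = 0.0519), and 13.7% of its exon bases also belong to Gm45193 on the same strand.

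Of the 5 other antiviral effectors, Bst2 and Trim30a rose. Bst2 encodes tetherin, which holds budding virus on the cell surface (chr8:71534255-71537456, minus strand). It held 3.42, 2.76, 2.73, 2.47 and 3.17 CPM at 2 months and 7.10, 4.35, 4.39, 5.27 and 4.93 CPM at 24 months. The levels of 9 months (3.02, 2.39, 3.61, 3.06 and 3.08 CPM) were like those of 2 months, and those of 15 months were 3.67, 2.98, 3.49, 3.70 and 4.33 CPM. Every library of 24 months lay above every one of 2, 9 and 15 months. Against 2 months the log2 fold change was 0.84 ± 0.13, 1.79-fold (adjusted p = 3.17e-05), and 0.70 without replicate 1 of 24 months (adjusted p = 1.54e-04).

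Trim30a, a tripartite motif protein that restrains signalling from Toll-like receptors (chr7:104409025-104465193, minus strand), went from 5.23, 5.31, 3.95, 4.95 and 4.71 CPM at 2 months to 8.10, 6.85, 6.26, 6.14 and 7.46 CPM at 24 months without overlap. It held 6.69, 4.53, 4.89, 4.99 and 4.85 CPM at 9 and 6.31, 4.90, 5.11, 6.69 and 5.65 CPM at 15 months, with replicate 1 the highest at 9 months. From 2 to 24 months the log2 fold change was 0.54 ± 0.11 (adjusted p = 6.42e-04). Ifitm3, which blocks viral fusion in endosomes, had the highest level per kilobase of exon of the 33 at 2 months, at 12.7 CPM per kilobase, next to Ifi27 at 11.5, where the median was 1.48. It ranged from 6.68 to 10.46 CPM at 2 months and from 8.20 to 11.5 CPM at 24 months (log2 fold change 0.13 ± 0.11, adjusted p = 0.427). Rsad2 (viperin) and Cmpk2, neighbours on chromosome 12 that make and feed an antiviral nucleotide, did not pass either, with log2 fold changes of 0.56 ± 0.23 (adjusted p = 0.0939) and 0.043 ± 0.043 (adjusted p = 0.507).

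The interferon-inducible GTPases, which coat and break the vacuoles of intracellular pathogens and answer mainly to interferon gamma, had the largest median log2 fold change of the 8 roles, at 1.10, and 3 of the 5 passed the test. Without replicate 1 of 24 months that median was 0.45, under those of the OAS family (0.64) and the IFIT family (0.58). Gbp2 (chr3:142620602-142638008, plus strand) held 4.25, 6.07, 4.66, 5.34 and 6.03 CPM at 2 months and 26.1, 8.01, 9.10, 7.66 and 6.79 CPM at 24 months. It stood at 6.87, 5.68, 5.35, 4.66 and 3.73 CPM at 9 months and at 11.95, 4.98, 6.17, 8.86 and 9.28 CPM at 15 months. Replicate 1 of 24 months held 3.30 times the mean of the other 4, which themselves lay above every library of 2 months. On the log2 scale the change was 1.15 ± 0.37 (adjusted p = 0.0330). It was 0.59 (adjusted p = 0.0745) without that replicate, and the call was also lost without replicates 1, 3, 4 or 5 of 2 months, one at a time.

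Igtp (chr11:58199556-58207591, plus strand) held 4.74, 4.95, 4.56, 5.79 and 4.65 CPM at 2 months, 6.91, 4.91, 5.20, 5.22 and 5.46 CPM at 9, 10.9, 6.08, 6.45, 8.61 and 9.37 CPM at 15 and 23.9, 7.15, 9.31, 6.27 and 7.26 CPM at 24 months. All libraries of 15 and 24 months lay above those of 2 months. To 24 months the log2 fold change was 1.15 ± 0.33 (adjusted p = 0.0208) and 0.62 (adjusted p = 0.00815) without replicate 1, which stood 3.19 times as high as the mean of the rest. Of its exon bases, 8.01% belong to Irgm2 on the same strand. Irgm1 (chr11:48861968-48871683, minus strand) went from 10.2, 10.7, 9.86, 10.7 and 10.9 CPM at 2 months to 32.5, 14.3, 15.1, 14.4 and 13.3 CPM at 24 months. At 9 months it held 11.9, 10.8, 11.3, 11.2 and 9.94 CPM and at 15 months 18.3, 12.4, 13.1, 16.2 and 15.8 CPM, all 5 above 2 months. To 24 months the log2 fold change was 0.79 ± 0.22 (adjusted p = 0.0164); without replicate 1 it was 0.45, and with the narrower spread the adjusted p was 2.98e-04.

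Gbp3 and Iigp1 did not pass the comparison of 24 with 2 months and passed the line over the 4 ages. Gbp3 ranged from 4.54 to 7.88 CPM at 2 months and from 6.44 to 17.6 CPM at 24 months, with a log2 fold change of 0.71 ± 0.26 (adjusted p = 0.0582) and a slope with adjusted p = 0.0277. Iigp1 ranged from 1.47 to 2.91 CPM and from 2.36 to 11.6 CPM, with 1.10 ± 0.42 (adjusted p = 0.0737) and a slope with adjusted p = 0.0323. Without replicate 1 of 24 months, or without replicate 3 of 24 months, neither slope passed the test, and that of Iigp1 was also lost without replicate 1 of 2 months.

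Of the 7 other induced genes, Ifi27, Xaf1, Lgals3bp and Parp14 rose. Ifi27, a small hydrophobic mitochondrial protein (chr12:103434211-103440239, plus strand), had the smallest adjusted p of the 33. It held 16.2, 19.7, 16.8, 16.8 and 14.7 CPM at 2 months and 26.5, 22.6, 26.3, 24.8 and 26.01 CPM at 24 months. Between them came 19.4, 19.4, 20.8, 19.3 and 17.4 CPM at 9 and 19.6, 21.6, 21.4, 21.7 and 21.5 CPM at 15 months. The means climbed from 16.8 ± 1.79 to 19.3 ± 1.21, 21.2 ± 0.867 and 25.3 ± 1.62 CPM (SD, n = 5 at each age). Its log2 fold change was 0.59 ± 0.059 (adjusted p = 4.06e-08).

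Lgals3bp, a secreted glycoprotein that binds galectin-3 (chr11:118392751-118402092, minus strand), held 22.04, 26.5, 22.4, 22.5 and 18.9 CPM at 2 months, 23.4, 19.02, 22.7, 19.5 and 20.8 CPM at 9 and 24.3, 21.8, 22.96, 24.3 and 24.6 CPM at 15 months. These 3 ages overlapped, and the 24 month libraries stood above all of them at 45.5, 30.7, 35.6, 36.1 and 32.9 CPM. The log2 fold change from 2 to 24 months was 0.69 ± 0.10 (adjusted p = 5.59e-05). Xaf1, a partner and inhibitor of the apoptosis inhibitor XIAP (chr11:72301629-72313733, plus strand), went from 5.77, 6.89, 5.52, 5.51 and 5.32 CPM at 2 months to 10.9, 8.14, 7.51, 8.62 and 7.36 CPM at 24 months. It held 6.62, 6.97, 6.74, 5.08 and 6.95 CPM at 9 months and 8.61, 7.61, 7.504, 7.32 and 7.49 CPM at 15 months, so that it was already above all of 2 months at 15. The log2 fold change was 0.55 ± 0.10 (adjusted p = 1.82e-04).

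Parp14, a mono-ADP-ribosyltransferase (chr16:35832874-35871544, minus strand), held 7.62, 8.78, 6.78, 8.77 and 7.52 CPM at 2 months and 13.9, 10.3, 9.69, 10.2 and 9.33 CPM at 24 months. It stood at 8.29, 7.18, 6.70, 10.4 and 6.02 CPM at 9 and 10.6, 6.79, 7.95, 10.2 and 8.05 CPM at 15 months. The ages of 2 and 24 months did not overlap, and the log2 fold change was 0.45 ± 0.15 (adjusted p = 0.0370). The call was lost without replicates 1, 3 or 5 of 2 months and without replicates 1 or 2 of 24 months (adjusted p = 0.0967 without replicate 1). Ifi27l2a, Rtp4 (a chaperone of receptors) and Ifi44 did not pass, with log2 fold changes of 0.59 ± 0.24 (adjusted p = 0.0825), 0.50 ± 0.19 (adjusted p = 0.0562) and -0.030 ± 0.19 (adjusted p = 0.934). The slope of Rtp4 over the 4 ages passed the test (adjusted p = 0.0319). It was lost without replicate 3 of 2 months or replicates 1, 3 or 5 of 24 months, one at a time. Rtp4 shares 13.9% of its exon bases with Gm45338 on the same strand.

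**Figure D4:**
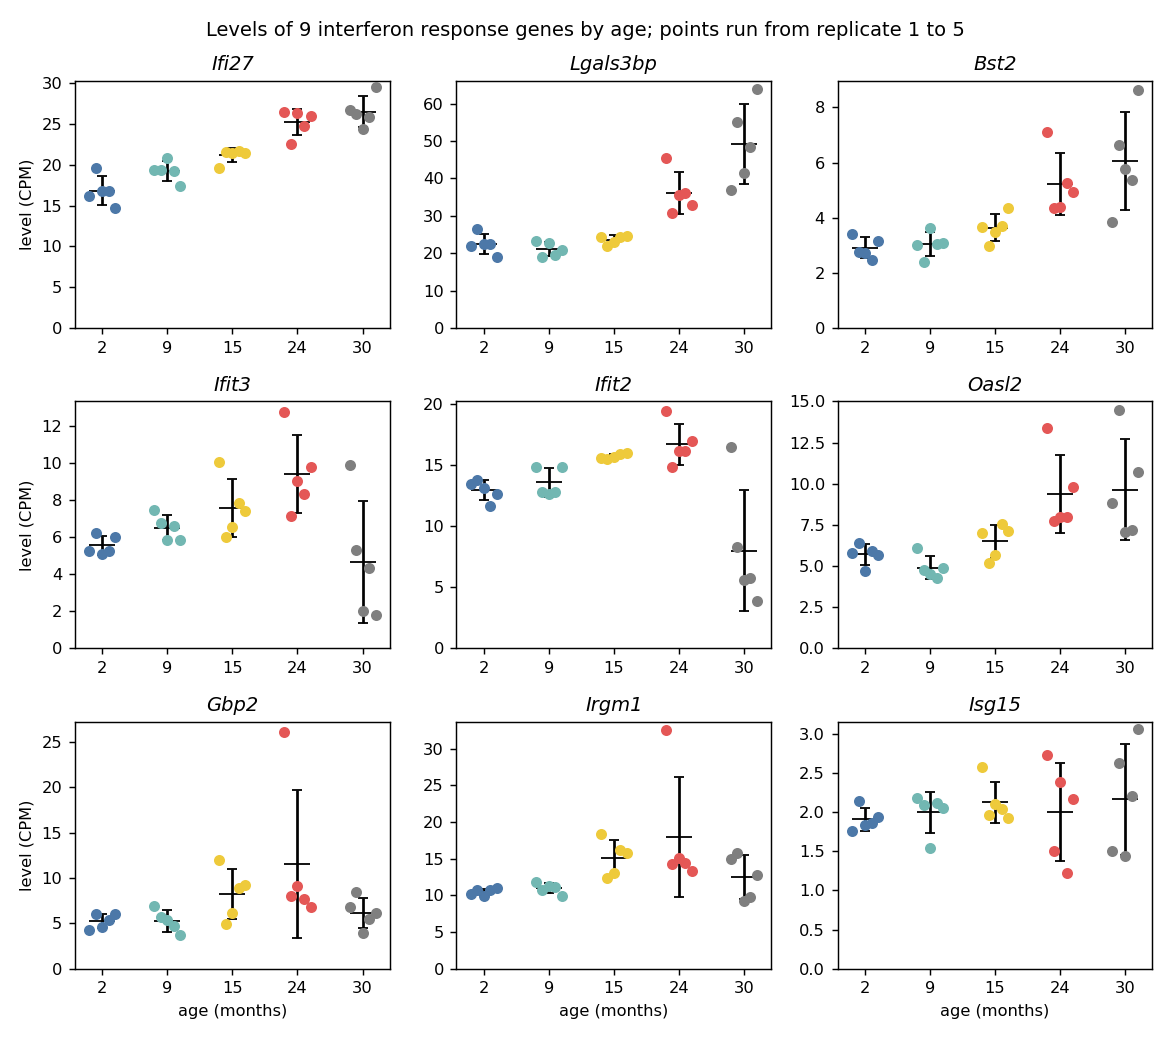
Each panel plots one gene, with age in months across and CPM up from 0; points are the 5 libraries of an age from replicate 1 on the left to 5 on the right, and bars are the mean and SD. Ifi27 climbs at each age to 24 months, Lgals3bp, Bst2 and Oasl2 stand apart at 24 months, Gbp2 and Irgm1 have replicate 1 of 24 months far above the rest, and Ifit2 and Ifit3 split at 30 months between replicate 1 and the other 4.

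At 9 months 1 member had moved. Ifi27 rose (log2 fold change 0.20 ± 0.061, adjusted p = 0.0278) and no member fell, where 7.76% of all genes rose and 6.79% fell, and the median over the 33 was 0.021. The Ifi27 call was lost without any one of 6 libraries, replicates 1, 3 and 5 of 2 months and 1, 2 and 3 of 9 months. In no member did the 9 month libraries lie wholly above or below those of 2 months, which they did in 5.24% and 4.57% of all genes. At 15 months 5 members rose from 2 months and none fell, against 5.31% and 7.30% of all genes. These were Ifit2, Ifit3b (log2 fold change 0.53 ± 0.17, adjusted p = 0.0399), Herc6 (0.29 ± 0.074, adjusted p = 0.00875), Ifi27 (0.33 ± 0.061, adjusted p = 4.91e-04) and Xaf1 (0.41 ± 0.10, adjusted p = 0.00907). The 15 month libraries lay wholly above those of 2 months in Ifit2, Herc6, Igtp, Irgm1 and Xaf1 and below in no member, against 4.55% and 5.78% of all genes. At 15 months the median log2 fold change was 0.26, and 30 of 33 were above 0. The Ifit3b call was lost without any one of 7 libraries, replicates 1 to 4 of 2 months and 1, 4 and 5 of 15 months, and 8 members passed when replicate 1 of 24 months was left out of the shared spread (5.50% of all genes then rose and 7.35% fell).

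From 9 to 15 months Irf7, Ifit2 and Ifi44 rose and none fell, against 3.89% and 6.84% of all genes. Irf7 rose by 0.69 ± 0.17 on the log2 scale (adjusted p = 0.00766) and Ifi44 by 0.75 ± 0.20 (adjusted p = 0.0146). Ifi44 lost its call without replicate 1 of 15 months, which at 2.14 CPM was the highest of the 20 libraries, and Ifit2 without any one of replicates 2, 3 and 4 of 9 months or 3, 4 and 5 of 15 months. Without replicate 1 of 24 months in the shared spread 8 members rose, against 4.12% of all genes, and none fell, against 6.95%. The 15 month libraries lay wholly above those of 9 months in Ifit2, Irgm1, Xaf1 and Ifi44 and below in no member, against 3.38% and 5.06% of all genes. From 15 to 24 months 7 rose and none fell, against 12.3% and 11.3% of all genes, and the median was 0.30. With an offset for the GC content of each gene, 4 members rose from 2 to 15 months, where 4.40% of all genes did. With it 2 rose from 9 to 15 months (2.56%) and 6 from 15 to 24 months (5.04%). No member fell in these 3 comparisons, where 3.71%, 2.76% and 6.96% of all genes fell.

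The 7 that rose after 15 months were Lgals3bp (log2 fold change 0.62 ± 0.10, adjusted p = 2.21e-04), Ifi27 (0.25 ± 0.057, adjusted p = 0.00180), Bst2 (0.53 ± 0.13, adjusted p = 0.00345), Oasl2 (0.54 ± 0.14, adjusted p = 0.00866), Ifitm3 (0.35 ± 0.11, adjusted p = 0.0270), Ddx58 (0.21 ± 0.075, adjusted p = 0.0450) and Trim30a (0.29 ± 0.11, adjusted p = 0.0498). In Lgals3bp, Ifi27, Bst2 and Oasl2 the 24 month libraries lay wholly above those of 15 months, where 8.55% of all genes did, and in no member wholly below, where 7.67% did. The number was 4 without replicates 2 or 5 of 15 months or replicate 1 of 24 months, one at a time. Ddx58, Ifitm3 and Trim30a each lost the call on leaving out single libraries, in 8, 5 and 13 of the 20 cases. These comparisons share libraries, so their counts are not independent of each other.

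The course of 6 members departed from a straight line over 2 to 24 months, where 29.3% of all genes did: Lgals3bp (adjusted p = 0.00679), Irf7 (adjusted p = 0.00757), Ifi44 (adjusted p = 0.0172), Cmpk2 (adjusted p = 0.0307), Ifitm3 (adjusted p = 0.0426) and Oasl2 (adjusted p = 0.0454). This share is below that of all genes. The number was 3 without replicate 2 or replicate 3 of 9 months. Irf7 and Ifi44 had their lowest means at 9 months, at 2.13 ± 0.259 CPM and 0.810 ± 0.164 CPM (SD, n = 5), against 2.88 ± 0.464 and 1.22 ± 0.283 CPM at 2 months. For Ifi27, which rose in the comparisons of 9, 15 and 24 with 2 months, the adjusted p of the departure was 0.949.

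Within 24 months the GTPases set replicate 1 apart from the others. Averaged over the 5 GTPases, log2(CPM + 0.25) stood 1.96 above the 2 month mean in replicate 1 and 0.32 to 0.77 above it in the other 4. Over the 28 other members the same average was 0.77 in replicate 1 and 0.24 to 0.42 in the other 4. At 15 months the GTPase average also split the libraries, with 1.02 in replicate 1, 0.67 in replicate 4, 0.70 in replicate 5, 0.30 in replicate 3 and -0.0015 in replicate 2. Of the 15 markers of T and B cells, 14 were highest in replicate 1 of 24 months among the 20 libraries, Trac being the one that was not. Their sum was 26.8 CPM in it, 10.6 to 16.1 CPM in the other 4 of 24 months and 10.6 to 11.9 CPM at 2 months. Only 3 of the 15 passed the filter on low counts, and Trac (log2 fold change 0.72, adjusted p = 0.0278) and Cd79b (1.36, 0.00921) rose at 24 months. The part of these cells in the GTPase levels was not tested; at 15 months the marker sum was 10.1 to 10.9 CPM in all 5 libraries.

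Microglial markers moved with age as well. Of 15, 9 rose from 2 to 24 months and Fcrls fell, with Trem2 (log2 fold change 0.53) and Ctss (0.58) among the 9, while P2ry12 (0.061, adjusted p = 0.360) and Csf1r (-0.017, adjusted p = 0.830) did not pass. Their sum was 448 to 537 CPM at 2 months and 523 to 572 CPM at 24 months. With the mean level of 6 of them, P2ry12 and Csf1r included, as a covariate, 9 interferon response genes still rose at 24 months: Ifit2, Ifit3, Ifit3b, Oasl2, Bst2, Trim30a, Ifi27, Xaf1 and Lgals3bp. The median log2 fold change was then 0.40. With the level of Alb as a covariate 24 rose, where 5.51% of all genes rose and 6.10% fell. Of 12 endothelial markers 1 rose and 3 fell, and of 8 astrocyte markers 3 rose. Of 6 meningeal markers 3 fell, and of 5 border macrophage markers Mrc1 fell. None of 7 choroid plexus markers was called, while their sum was 488 to 552 CPM at 2 months and 611 to 728 CPM at 24 months. The part of these tissues in the levels was not tested.

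**Figure D5:**
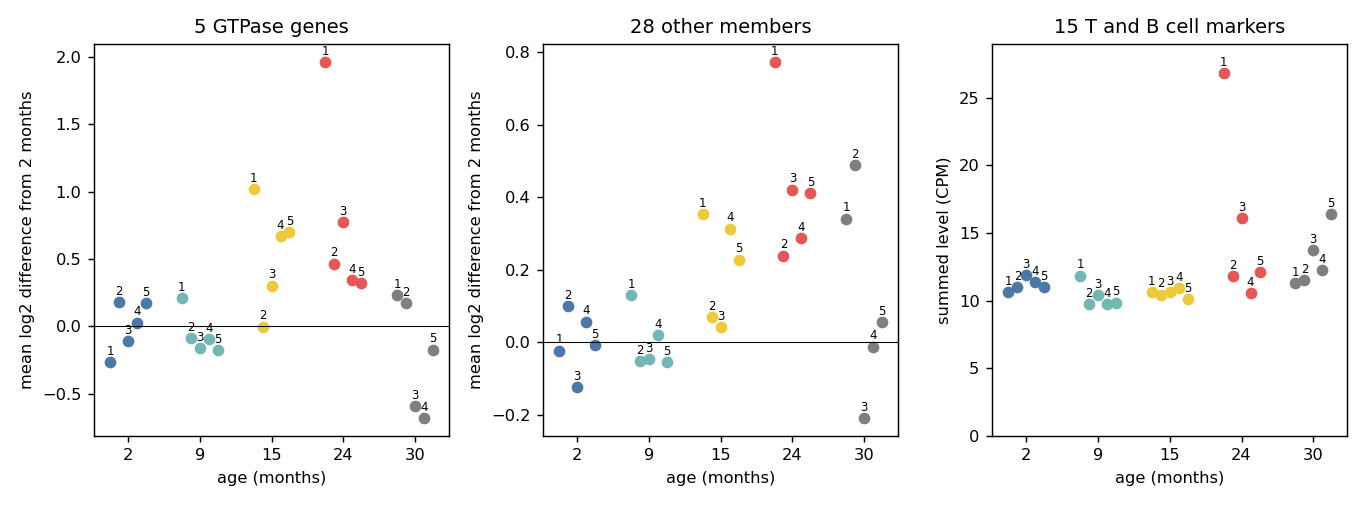
Points are libraries by age, numbered by replicate: mean difference in log2(CPM + 0.25) from the 2 month mean over the 5 GTPases (left) and the 28 other members (middle), and the summed CPM of 15 T and B cell markers (right). Replicate 1 of 24 months is highest in all 3 panels, and at 15 months the GTPase values spread from -0.0015 to 1.02 while the marker sums stay within 10.1 to 10.9 CPM.

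Around these 33 genes, 102 further genes of the pathway were listed, and 87 were tested. From 2 to 24 months 36 of the 87 rose and 4 fell, where 10.8% of all genes rose and 11.5% fell. Without replicate 1 of 24 months 21 rose and 4 fell, where 8.90% of all genes rose and 9.88% fell. The 10 ligands were at or near 0. Ifna1, Ifna4, Ifnl2 and Ifnl3 had no count in any library, which in the smallest library allows up to 0.169 CPM each. Over all 25 libraries Ifna5 and Ifnb1 had 1 count, Ifna2 had 2, Ifne had 4 and Ifnk had 10, of which 7 were at 30 months. Ifng had 3 counts, 1 each in replicates 1, 2 and 3 of 24 months, and none at any other age. These counts are too low for any comparison of ages.

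None of the 6 receptors passed the test as higher. Ifnar1 fell slightly from 2 to 24 months (log2 fold change -0.11 ± 0.038, adjusted p = 0.0369) and so did Ifngr2 (-0.13 ± 0.039, adjusted p = 0.0190). Ifnar2 (0.10 ± 0.059, adjusted p = 0.231), Ifngr1 (0.029 ± 0.065, adjusted p = 0.797), Ifnlr1 (0.36 ± 0.24, adjusted p = 0.306) and Il10rb (0.13 ± 0.10, adjusted p = 0.368) did not pass the test. Without replicate 1 of 24 months 1 of the 6 receptors fell.

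Of 12 kinases and factors 6 rose, none fell. Irf8, a factor of microglia and other myeloid cells, rose by 0.51 ± 0.10 (adjusted p = 4.89e-04) and Stat3, the main factor downstream of interleukin-6 type cytokines, by 0.19 ± 0.039 (adjusted p = 5.85e-04). Of 16 sensors and adaptors tested 5 rose, among them Ifi203 (0.73 ± 0.17, adjusted p = 0.00211), a member of the DNA-binding Ifi200 family, and without replicate 1 of 24 months Ifi203 alone passed. Of the 7 restraints 3 rose and 1 fell, with Ptpn6, the phosphatase SHP-1, at 0.54 ± 0.13 (adjusted p = 0.00302).

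Of 46 further targets tested 22 rose and Ifitm1 fell, and without replicate 1 of 24 months 13 rose and Ifitm1 and Helz2 fell. The smallest adjusted p belonged to Parp12, an interferon-induced ADP-ribosyltransferase, with 13.6, 12.97, 14.6, 14.1 and 14.4 CPM at 2 months and 22.9, 19.6, 20.4, 17.4 and 18.95 CPM at 24 months. Its log2 fold change was 0.51 ± 0.059 (adjusted p = 3.87e-07). Tor3a rose by 0.41 ± 0.067 (adjusted p = 4.80e-05), Parp9 by 0.45 ± 0.10 (adjusted p = 9.29e-04), its partner Dtx3l by 0.38 ± 0.089 (adjusted p = 0.00239) and the galectin Lgals9 by 0.38 ± 0.091 (adjusted p = 0.00304). At low levels the chemokines Cxcl10 and Ccl5 changed by more than these. Cxcl10, which draws T cells through Cxcr3, went from 0.195, 0.357, 0.128, 0.281 and 0.358 CPM to 1.97, 0.431, 0.692, 0.784 and 0.666 CPM (log2 fold change 1.85 ± 0.38, adjusted p = 8.87e-04). Ccl5, a T cell and myeloid chemokine, went from 0, 0.153, 0.193, 0.0562 and 0.153 CPM to 1.59, 0.474, 0.830, 0.305 and 0.366 CPM (2.57 ± 0.58, adjusted p = 0.00267). Without replicate 1 of 24 months these became 1.34 and 2.03, and both passed the test.

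At 30 months calls went in both directions, among the members and among all genes. Against 2 months 12 rose and 5 fell, where 28.5% of all genes rose and 29.5% fell. Those that rose were Irf7, Dhx58, Oas1a, Oasl2, Usp18, Bst2, Ifitm3, Ifi27, Ifi27l2a, Rtp4, Xaf1 and Lgals3bp, and those that fell were Ifih1, Ifit2, Herc6, Cmpk2 and Gbp3. Against 24 months 2 rose, Ifitm3 and Lgals3bp, and 15 fell, where 25.5% of all genes rose and 29.0% fell. The GC content of the longest transcript was 47.4% to 55.8% in the 12 that rose from 2 months and 39.4% to 45.9% in the 5 that fell. All 5 libraries of 30 months lay above all 5 of 2 months in 6 members (11.4% of all genes) and below in none (12.5%), and below all 5 of 24 months in Cmpk2, Gbp3 and Iigp1 (8.46%) and above in none (8.08%). In all 5 that fell from 2 months, replicates 2 to 5 lay below every library of 2 months. Without these 4 libraries Ddx58, Ifit3, Ifi27 and Lgals3bp rose from 2 months (4.19% of all genes) and none fell (3.08%), and none rose or fell from 24 months (1.52% and 0.809%). With an offset for the GC content of each gene and all 5 libraries, 13 rose and 1 fell from 2 months, where 24.2% of all genes rose and 21.4% fell, and 1 rose and 10 fell from 24 months, where 21.7% rose and 19.6% fell.

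The other calls of 30 against 2 months are given here as the log2 fold change with all 5 libraries and then with replicate 1 alone. Among those that rose they were 0.70 and 0.39 for Irf7, 0.55 and 0.21 for Dhx58, 0.98 and 0.28 for Oas1a, 0.62 and 0.66 for Usp18, 0.86 and 0.40 for Ifitm3, 1.04 and 1.06 for Ifi27l2a, 0.60 and 0.60 for Rtp4 and 0.29 and 0.40 for Xaf1. For the remaining genes that fell they were -0.997 and 0.034 for Herc6, -0.31 and -0.027 for Cmpk2 and -0.99 and -0.035 for Gbp3. None of these 11 passed the test with replicate 1 alone. Against 24 months, Ifitm3 changed by 0.74 and 0.26 and Lgals3bp by 0.44 and 0.027. The 15 that fell from 24 months ran from -2.09 for Iigp1 to -0.27 for Xaf1, and with replicate 1 alone these lay between -1.31 for Iigp1 and 0.060 for Ifit3.

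The IFIT genes differed at 30 months between replicate 1 and the other 4 libraries. Ifit1 held 6.25 CPM in replicate 1 of 30 months and 4.16, 1.28, 2.53 and 1.17 CPM in replicates 2 to 5. In Ifit2 replicate 1 stood at 16.4 CPM and the other 4 at 8.27, 5.62, 5.74 and 3.89 CPM. Ifit3 had 9.88 CPM in replicate 1, with 5.31, 2.02, 4.32 and 1.80 CPM in the rest. In these 3 genes replicate 1 lay within the range of 24 months and above every library of 2 months. Ifit3b had 5.09 CPM in replicate 1 and 3.16, 1.71, 1.97 and 2.23 CPM in replicates 2 to 5. The sensor Ifih1 stood at 8.60 CPM and at 5.50, 3.18, 3.58 and 3.50 CPM in the same order. Ddx58 held 9.93 CPM and then 11.4, 6.74, 6.48 and 5.34 CPM. Against 2 months the log2 fold change of Ifit2 was -0.69 ± 0.22 (adjusted p = 0.00841), and 0.34 with replicate 1 alone; that of Ifih1 was -0.55 ± 0.19 (adjusted p = 0.0151), and 0.28 with replicate 1 alone.

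Other members stayed above 2 months in all 5 libraries of 30 months. Ifi27 held 26.7 CPM in replicate 1 and 26.2, 24.3, 25.9 and 29.5 CPM in replicates 2 to 5, all above 2 months. Its log2 fold change from 2 months was 0.66 ± 0.068 (adjusted p = 2.10e-07), and 0.67 (adjusted p = 2.90e-05) with replicate 1 alone. Lgals3bp held 36.9 CPM and 55.2, 41.4, 48.5 and 63.8 CPM. The log2 fold change was 1.13 ± 0.12 (adjusted p = 3.00e-07), and 0.72 (adjusted p = 0.00924) with replicate 1 alone. In Bst2 replicate 1 stood at 3.85 CPM and the others at 6.65, 5.77, 5.37 and 8.65 CPM. Oasl2 had 8.81 CPM and 14.5, 7.05, 7.21 and 10.7 CPM. Igtp had 6.93 CPM in replicate 1 and 7.65, 6.86, 6.25 and 11.3 CPM in the other 4. Bst2, Oasl2 and Igtp were above every library of 2 months in all 5, with log2 fold changes from 2 months of 1.05 ± 0.17 for Bst2 (adjusted p = 3.23e-05) and 0.76 ± 0.18 for Oasl2 (adjusted p = 9.74e-04). Igtp did not pass the test of 30 against 2 months, and its log2 fold change was 0.50 with replicate 1 alone. Neither Bst2 (0.40, adjusted p = 0.338) nor Oasl2 (0.64, adjusted p = 0.130) passed the test with replicate 1 alone.

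The remaining members that rose at 24 months held the following levels at 30 months, replicate 1 first. Irf7 had 3.77 CPM and 6.07, 3.53, 2.89 and 7.19 CPM. Stat2 had 30.5 CPM and 32.6, 30.4, 32.1 and 26.7 CPM. Replicates 2 and 5 were the highest for Irf7, and replicate 5 the lowest for Stat2. The level of Zbp1 was 0.257 CPM and 1.05, 0.581, 0.459 and 1.02 CPM. Oas1a stood at 0.513 CPM and 1.43, 0.581, 0.781 and 0.923 CPM. Usp18 stood at 2.61 CPM and 4.40, 1.78, 1.84 and 2.19 CPM. Replicate 2 was the highest of the age for all 3 of these genes. For Trim30a the levels were 5.86 CPM and 6.55, 2.98, 4.27 and 2.87 CPM. For Gbp2 they were 6.76 CPM and 8.42, 3.95, 5.51 and 6.12 CPM. For Irgm1 they were 14.9 CPM and 15.7, 9.22, 9.78 and 12.8 CPM. In these genes replicates 1 and 2 lay above every library of 2 months and replicates 3 and 4 did not. Xaf1 had 7.66 CPM and 8.27, 5.58, 6.48 and 7.43 CPM. Parp14 had 8.47 CPM and 9.90, 5.54, 6.61 and 3.93 CPM. Xaf1 lay above 2 months in replicates 1, 2 and 5, and Parp14 in replicate 2 alone. Counted over all 33, replicate 1 of 30 months lay above every library of 2 months in 20 members, and it fell within the range of 24 months in 22, below it in 8 and above it in 3.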

How the data were processed

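Total RNA was sequenced after TruSeq library preparation, per the labels. Per the submitters' processing notes, the authors used CASAVA 1.7, STAR 2.4.1d, featureCounts 1.4.6-p4 and the GRCm38 genome, and they deposited raw counts per Ensembl gene; the annotation release, the strand setting and the treatment of reads that fit several genes are not given in the sources used here. Deposited RPKM values were not used. No column of a sample of another series was used. Of 47729 genes, 47310 matched GENCODE M21 (GRCm38), which gave symbols, coordinates and exon lengths; 1 listed gene, Mb21d1, was matched through its RefSeq synonym. Exon length is the union of the exons of a gene, and levels were compared between genes only per kilobase of it.

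In R 4.3.3 with edgeR 4.0.16, filterByExpr over the 5 ages left 17799 genes and TMM scaled the 25 libraries. Robust quasi-likelihood fits had a mean per age; those among 2 to 24 months used 20 libraries, and those with 30 months used 25. Further fits gave a line in months and tested quadratic and cubic terms jointly as the departure from it. All p-values are two-sided, adjusted by Benjamini and Hochberg over all genes tested, at 0.05. The standard error of a log2 fold change is its size divided by the square root of F. The script was tested on simulated data with known changes before use.

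The members, roles and lists were chosen with earlier results of these data known. Values of every library are printed for members that passed in 24 against 2 months; of the listed pathway genes that passed, the 12 with the smallest p are named, apart from a gene that is not reported here, and ligands and receptors always. Alternatives were RLE scaling, total counts alone, no filter, limma-voom (limma 3.58.1), DESeq2 1.42.0, an offset for GC content, covariates for Alb or 6 microglial genes, all libraries in one fit, TMM over the 20 libraries (added after the data were seen) and leaving out each library. Replicates are numbered within an age in accession order. Depth was 17.8 to 31.3 in units of 1000000 counts, and with 5 libraries per age the spread between libraries sets the precision.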

Additional observations from a re-analysis of the deposited data

Results flagged for a closer look

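In 21 of the 165 groups examined (33 genes at 5 ages), 1 library lay far from the other 4 of its age, by a gap over 0.71 of the whole range of the group. Chance flags about 1 in 20 such groups, and the genes are not independent of each other.

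At 24 months replicate 1 was far above the rest for Zbp1 at 2.25 CPM (the other 4 between 0.5996 and 0.796), Gbp2 at 26.1 CPM (the other 4 between 6.79 and 9.10), Iigp1 at 11.6 CPM (the other 4 between 2.36 and 4.19), Igtp at 23.9 CPM (the other 4 between 6.27 and 9.31), Irgm1 at 32.5 CPM (the other 4 between 13.3 and 15.1) and Parp14 at 13.9 CPM (the other 4 between 9.33 and 10.3). All 6 were high, and 4 of the 6 are GTPases.

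At 9 months replicate 1 was far above the rest for Irf7 at 2.58 CPM (the other 4 between 1.93 and 2.10), Ifit3b at 4.69 CPM (the other 4 between 3.22 and 3.59), Usp18 at 1.96 CPM (the other 4 between 1.37 and 1.51), Trim30a at 6.69 CPM (the other 4 between 4.53 and 4.99) and Igtp at 6.91 CPM (the other 4 between 4.91 and 5.46). In the same age stood Dhx58 at 2.54 CPM (the other 4 between 1.53 and 1.77) in replicate 4 and Oas1a at 0.840 CPM (the other 4 between 0.527 and 0.565) in replicate 5, both high. Low at 9 months were Isg15 at 1.54 CPM (the other 4 between 2.05 and 2.18) in replicate 3 and Xaf1 at 5.08 CPM (the other 4 between 6.62 and 6.97) in replicate 4. In replicate 1 of 9 months choroid plexus markers summed to 42.2 CPM (the other 4 between 520 and 567). Red cell markers summed to 203 CPM in it (the other 4 between 34.2 and 74.8). The part of this in its high levels was not tested.

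At 15 months replicate 1 was high for Isg15 at 2.58 CPM (the other 4 between 1.93 and 2.11) and Xaf1 at 8.61 CPM (the other 4 between 7.32 and 7.61) and low for Ifi27 at 19.6 CPM (the other 4 between 21.4 and 21.7). At 2 months replicate 2 was high for Xaf1 at 6.89 CPM (the other 4 between 5.32 and 5.77). At 30 months replicate 1 was high for Herc6 at 11.98 CPM (the other 4 between 2.87 and 4.96) and replicate 5 for Igtp at 11.3 CPM (the other 4 between 6.25 and 7.65).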

How the results depend on the processing

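Of 980 single-gene values under other settings 817 kept their direction and their side of the threshold, 141 lost the call, 13 gained it and 9 changed sign; of 2290 with 1 library left out the numbers were 2137, 131, 18 and 4. Counts of members past the threshold stayed within 1.5 times the reported ones under RLE scaling, total counts alone, limma-voom and TMM over the 20 libraries.

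The count of 15 against 9 months was 6 with DESeq2, that of the departure from the line was 3 with no filter, and that of 30 against 24 months was 11 with the GC offset. With the Alb covariate 10 passed in 15 against 2, 7 in 15 against 9 and 13 in 24 against 15 months. With the microglial covariate 0 passed in 9 against 2, 2 in 15 against 2, 9 in 24 against 2, 12 along the line and 8 in 30 against 24 months. With all 25 libraries in one fit 0 passed in 9 against 2, 1 in 15 against 2, 8 in 24 against 2, 0 in 15 against 9 and 1 in 24 against 15 months. Without replicates 2 to 5 of 30 months 4 passed in 30 against 2 and 0 in 30 against 24 months, where the lone library of 30 months is assumed to vary like the other ages. The cause was not tested.

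With each library left out in turn the count ran from 0 to 2 in 9 against 2, 4 to 8 in 15 against 2, 16 to 26 in 24 against 2 (16 without replicate 1 and 26 without replicate 4 of 24 months), 2 to 8 in 15 against 9, 4 to 8 in 24 against 15, 18 to 25 along the line, 3 to 6 for the departure, 14 to 21 in 30 against 2 and 13 to 19 in 30 against 24 months.

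The sign of Ifi44 in 24 against 2 months turned with limma-voom (0.0076 on the log2 scale), the GC offset (0.013), the Alb covariate (0.34) and without replicates 2 (0.023) or 4 (0.090) of 2 months. That of Isg15 turned with the microglial covariate (-0.13) and without replicate 1 of 24 months (-0.041, with up to 0.22 without replicate 4), and that of Irf9 without replicate 1 of 2 months (-0.021, with up to 0.10 without replicate 4 of 24 months). Without replicates 2 to 5 of 30 months the sign turned for Ifih1 (0.28), Ifit2 (0.34) and Herc6 (0.034) against 2 months and for Ifit3 (0.060) and Ifit3b (0.032) against 24 months.

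No paired analysis was possible because replicates are numbered in accession order, which pairs nothing across ages. Depth limits Zbp1 and Oas1a, with counts down to 6 in a library, and the interferon genes themselves, with at most 4 counts.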
